A study of Mus musculus with 12 samples.

Results

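Lipid droplet coat and lipolysis genes were followed as a group of 10 genes in the mouse liver: the perilipins Plin2, Plin4 and Plin5, the CIDE proteins Cidea, Cideb and Cidec, the lipases Pnpla2 and Pnpla3, and the lipase inhibitors G0s2 and Hilpda. They were taken by gene symbol from a table of estimated read counts for 49398 Ensembl genes, in which all 10 were present. The livers came from wild-type C57BL/6J mice, females and males, aged 9 months, that ate AIN-93G chow for 8 weeks. CTRL mice ate it without added oil, VLC1 mice with 1% (w/w) and VLC5 mice with 5% (w/w) of a concentrate oil of very-long-chain polyunsaturated fatty acids (VLCPUFA), and every mouse was fasted for 5 h before the liver was taken. Each diet had 4 livers, 2 from females and 2 from males, so 12 livers were analysed, while the design text speaks of 6 per group. Where values are given in pairs, the order of animals is N979 then N980 (CTRL females), N967 then N968 (CTRL males), N983 then N984 (VLC1 females), N971 then N972 (VLC1 males), N987 then N988 (VLC5 females) and N975 then N976 (VLC5 males). Each library holds messenger RNA of a whole liver piece from 1 animal, and in such bulk samples fewer cells of a type and less RNA per cell cannot be told apart.

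A lipid droplet is a core of triglyceride and cholesteryl ester under a single layer of phospholipid. Perilipins coat that layer and control which lipases reach the core, CIDE proteins enlarge droplets by passing lipid from the smaller droplet to the larger, and lipases release fatty acids that the liver burns, exports or uses as ligands of nuclear receptors such as PPARα. Several of these genes are known targets of PPARα in mouse liver, and Cidea and Cidec, adipose tissue genes in lean mice, appear in the liver as fat accumulates.

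**Figure D1:**
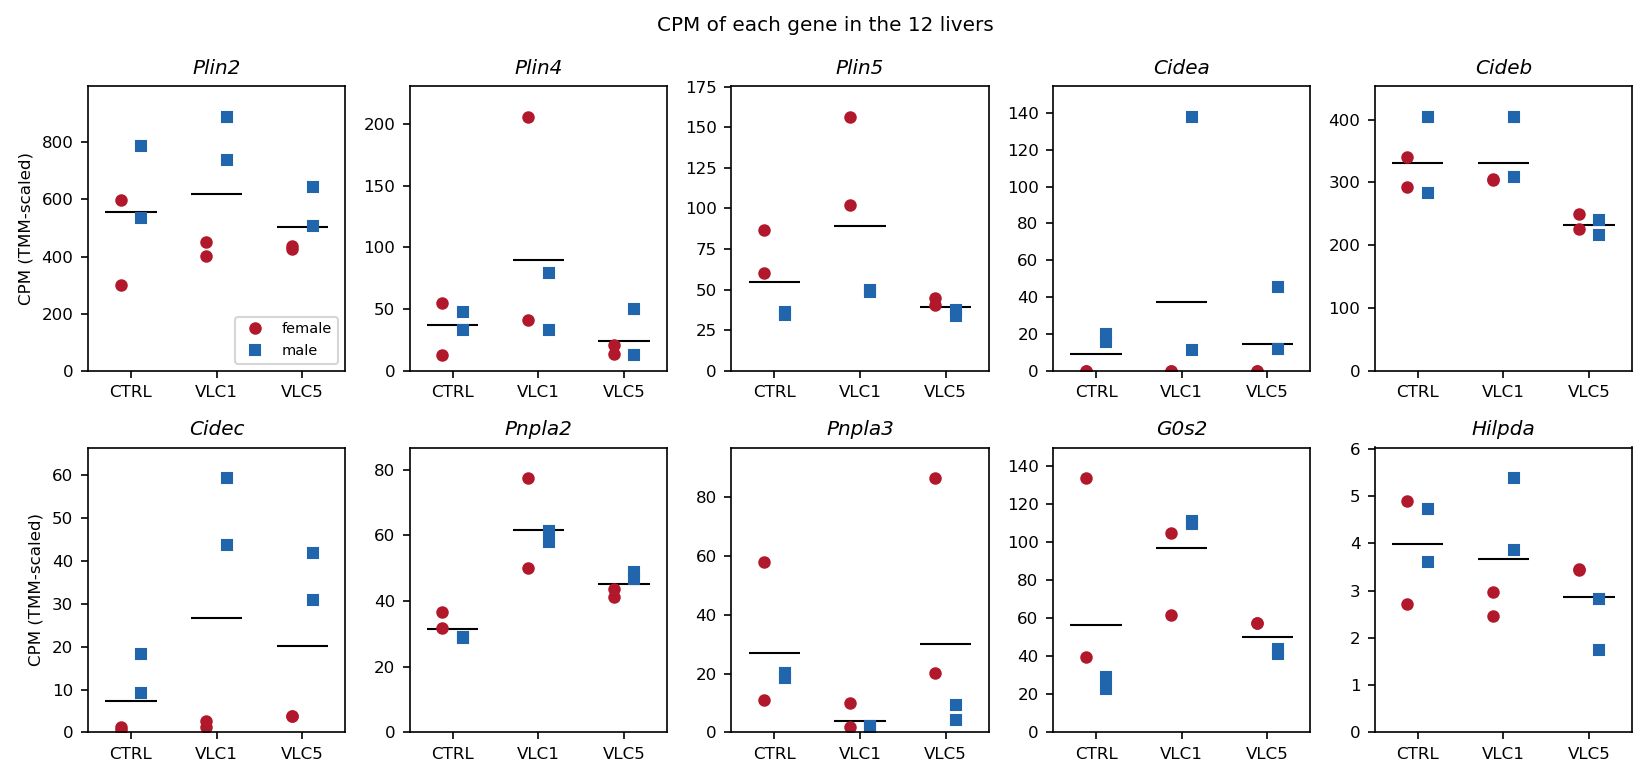
CPM (reads scaled to library size with TMM factors, linear axes from 0) of each of the 10 genes in the 12 livers by diet; circles are females, squares are males and bars are the means of 4 livers. Pnpla2 stood at 50.2 to 77.5 CPM in the VLC1 livers, above every CTRL liver, Cideb was lowest in the VLC5 livers, and Cidea and Cidec separated the sexes on every diet.

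Depth ran from 5291385 to 15674130 estimated reads per liver. Hepatocyte markers summed to 94140 to 177000 CPM over the 12 livers with all 8 genes read. Of the 8 adipocyte markers, Lep had 0 reads, and Adipoq, Ucp1, Retn and Plin1 had 3, 1, 9 and 10 reads over all livers. The remaining ones, Fabp4, Adrb3 and Cfd, were read at up to 48.8, 14.2 and 21.5 CPM in a liver. All 8 together summed to 13.1 to 82.2 CPM over the 12 livers. The 5 striated muscle markers summed to at most 0.725 CPM in any liver. Reads on noncoding genes made up 0.646 to 1.91% of each library, with the highest shares in the VLC1 females N984 (1.91%) and N983 (1.55%) and the CTRL female N979 (1.63%). Kupffer cell markers (6 genes) summed to 184 to 408 CPM in CTRL, 95.7 to 237 CPM in VLC1 and 94.8 to 247 CPM in VLC5 livers, and stellate cell markers (7 genes) to 137 to 285 CPM, 148 to 225 CPM and 125 to 220.0 CPM in the same livers. The clock output gene Dbp stood at 0.157 to 1.1 CPM in CTRL, 1.62 to 19.99 CPM in VLC1 and 12.7 to 39.98 CPM in VLC5 livers. The part of cell makeup, noncoding share and clock phase in the results below was not tested beyond the fit with the noncoding share as a term.

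Levels between genes were compared as TPM, a share of all transcripts that divides reads by transcript length. Plin2, the constitutive droplet coat of hepatocytes, and Cideb, the CIDE protein that hepatocytes normally express and that takes part in the lipidation of very-low-density lipoproteins, stood first, with median levels of 402 and 356 TPM in CTRL livers. Their CTRL ranges, 228 to 659 TPM for Plin2 and 326 to 407 TPM for Cideb, overlapped. Next came G0s2 (median 55.4 TPM), Pnpla3 (35.6 TPM), Plin5 (33.4 TPM) and Pnpla2 (21.6 TPM). In CTRL livers G0s2 ranged from 31.8 to 194 TPM, Pnpla3 from 19.4 to 105 TPM, Plin5 from 22.2 to 55.4 TPM and Pnpla2 from 17.6 to 24.1 TPM. Each gene overlapped the next in this order, while every CTRL value of G0s2 was above every one of Pnpla2. Cidea (8.49 TPM), Plin4 (6.7 TPM), Hilpda (5.68 TPM) and Cidec (3.77 TPM) had the lowest medians in CTRL livers and also overlapped each other. In the oil-fed livers the median of Cidec was 21.1 TPM in VLC1 and 18.6 TPM in VLC5. The medians of Cidea and Cidec are midpoints between low females and higher males. Cidec averaged 1.90 CPM in VLC1 females and 51.6 CPM in VLC1 males, and Cidea 0.05 CPM in CTRL females and 17.8 CPM in CTRL males. Only 76.4% of the Plin4 reads over all livers fell on transcripts whose length was at hand, while the other 9 genes were covered in full. That cover differed between livers, with 174 of 434 Plin4 reads in N975 and 185 of 206 in N976. The TPM of Plin4 are therefore low by a share that varies, and its diets were not compared in TPM.

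**Figure D2:**
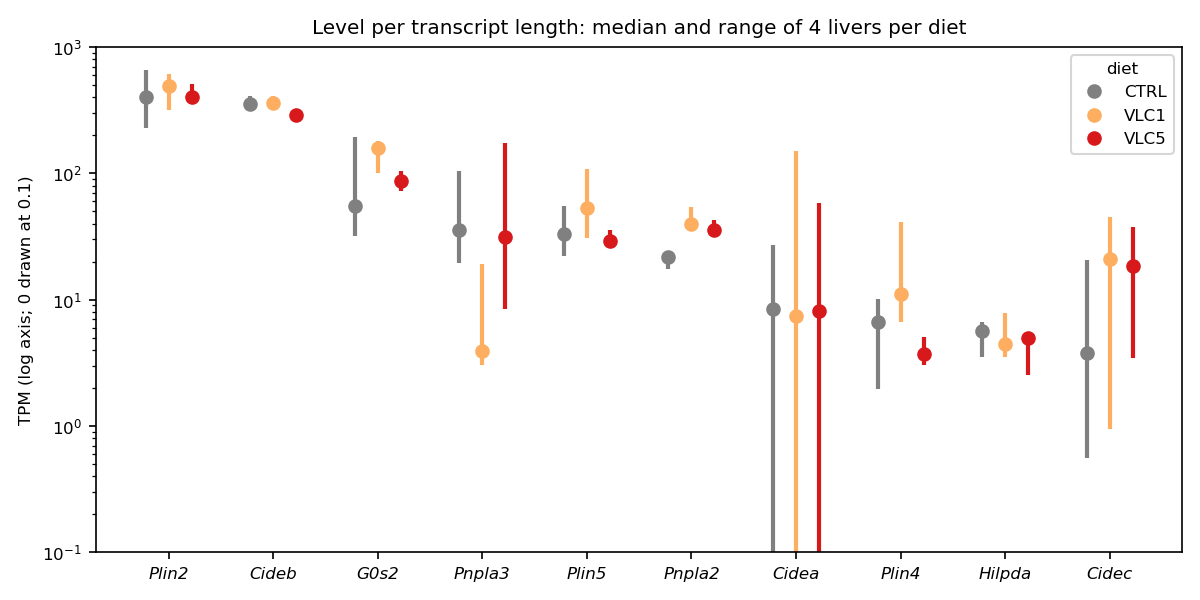
Level per transcript length (TPM, log axis) of the 10 genes, ordered by the CTRL median; points are medians and lines the lowest and highest of 4 livers per diet, with values of 0 drawn at 0.1. Plin2 and Cideb stood at 228 TPM or more in every liver, while Cidea ran from 0 to 151 TPM. Plin4 is drawn too low, by a share that differs between livers.

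With 5% oil against CTRL, the question is what the higher dose does to the droplet genes. Cidec rose and was the 1 member of 10 to pass the test, where 2.46% of the 13814 genes tested passed in either direction. The test was edgeR's quasi-likelihood test with diet and sex as terms, Benjamini-Hochberg adjusted over all genes tested, at a threshold of 0.05, and values after ± are standard errors for log2 fold changes and SDs over 4 livers for CPM. The direction of the 10 fitted values was mixed: 3 were positive, with a median log2 fold change of -0.24 against 0.01 over all genes. At an unadjusted p under 0.05 there were 3 members of 10, Cidec, Pnpla2 and Cideb, where 14.6% of all genes tested were under it.

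Cidec (ENSMUSG00000030278) encodes the CIDE protein known as Fsp27, which drives fusion-like growth of droplets. It had 3.81 and 3.83 CPM in the VLC5 females, against 1.27 and 0.6 CPM in the CTRL females, and 41.9 and 30.9 CPM in the VLC5 males, against 18.3 and 9.24 CPM in the CTRL males. The diets overlapped when the sexes were pooled but not within either sex. In females this rests on few reads, 7 and 6 in CTRL against 61 and 52 in VLC5. The mean was 20.1 ± 19.3 CPM in VLC5 and 7.36 ± 8.30 CPM in CTRL livers, the SD spanning both sexes. The log2 fold change was 1.75 ± 0.38 (95% interval 0.93 to 2.58, edgeR adjusted p = 0.0309). Within the sexes it was 2.13 ± 0.54 in females and 1.41 ± 0.38 in males (edgeR adjusted p = 0.0709 and 0.297), and the difference between them, 0.72 ± 0.66, did not pass the edgeR test (adjusted p = 1). The call was lost without the sex term (edgeR adjusted p = 0.808) and without any of the livers N980 (0.103), N968 (0.124), N988 (0.0764), N987 (0.0625) and N984 (0.0508), the fold remaining between 1.52 and 2.09 when any liver was left out.

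Cideb (ENSMUSG00000022219) showed the reverse order without passing the test. It had 226, 250.4, 239.7 and 217 CPM in the VLC5 livers, against 341, 293, 283 and 405 CPM in the CTRL livers and 305, 304, 308 and 404 CPM in the VLC1 livers. All 4 VLC5 livers lay below all livers of the other diets. The log2 fold change was -0.50 ± 0.16 against CTRL (edgeR adjusted p = 0.126) and -0.50 ± 0.16 against VLC1 (edgeR adjusted p = 0.133), both comparisons using the same VLC5 livers. DESeq2 put it past the threshold, with adjusted p = 0.0331 against CTRL and 0.0354 against VLC1. In each comparison 10 of the 11 other settings did not pass, nor did any of the 12 fits with a liver left out.

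With 1% oil against CTRL, Pnpla2 rose and was again the 1 member of 10 to pass the test, where 0.224% of all genes tested passed. This gene (ENSMUSG00000025509) encodes ATGL, the lipase that takes the first fatty acid off triglyceride. It had 50.2 and 77.5 CPM in the VLC1 females and 57.9 and 61.3 CPM in the VLC1 males, against 31.9 and 36.6 CPM in the CTRL females and 28.8 and 29.1 CPM in the CTRL males. No VLC1 liver overlapped a CTRL liver, with means of 61.7 ± 11.5 CPM in VLC1 and 31.6 ± 3.60 CPM in CTRL livers, and the log2 fold change was 0.96 ± 0.16 (95% interval 0.62 to 1.31, edgeR adjusted p = 0.0232). Females and males had fitted values of 0.89 ± 0.23 and 1.04 ± 0.23. The VLC5 livers lay between, at 43.7 and 41.3 CPM in females and 49.0 and 46.6 CPM in males, against the same CTRL livers. All 4 were above every CTRL liver and below every VLC1 liver, but neither difference passed, with a log2 fold change of 0.52 ± 0.16 against CTRL (edgeR adjusted p = 0.12) and -0.45 ± 0.16 against VLC1 (edgeR adjusted p = 0.167). The VLC1 call was lost without the sex term (edgeR adjusted p = 0.0511) and without any of N984 (0.111), N972 (0.0778), N971 (0.0563), N968 (0.117) and N967 (0.0808).

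Over the 10 genes 7 had a positive fitted value with 1% oil, with a median log2 fold change of 0.81 against 0.00 over all genes. At an unadjusted p under 0.05 there were 4 members of 10, Pnpla2, Cidec, Pnpla3 and Plin5, where 11.1% of all genes tested were under it. Between the oil diets 2 of the 10 fitted values were positive, with a median of -0.47 against 0.00 over all genes, and 6 members of 10, Plin5, Cideb, Pnpla3, Pnpla2, Plin4 and G0s2, had an unadjusted p under 0.05, where 17.8% of all genes did. These comparisons share livers, so their counts are not independent of each other.

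Pnpla3 (ENSMUSG00000041653), a droplet acyltransferase and lipase that sterol and carbohydrate signals induce, had 9.99, 1.9, 2.22 and 1.97 CPM in the VLC1 livers, against 11.1, 57.8, 18.7 and 20.2 CPM in the CTRL livers. Every VLC1 liver was below every CTRL liver, the lowest CTRL liver and the highest VLC1 liver lying close to each other. The log2 fold change of -2.91 ± 0.78 did not pass (edgeR adjusted p = 0.195), and DESeq2 put it at -2.94 with adjusted p = 0.0114. Of the 11 other settings 9 did not pass, nor did any of the 12 fits with a liver left out. In VLC5 livers Pnpla3 spanned 4.09 to 86.5 CPM, and 5% against 1% oil gave 2.54 ± 0.77 (edgeR adjusted p = 0.137).

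G0s2 (ENSMUSG00000009633), a small inhibitor that binds ATGL, had 111 and 109.5 CPM in the VLC1 males, against 29.0 and 22.8 CPM in the CTRL males. In females it had 61.7 and 104.5 CPM with 1% oil, against 134 and 39.4 CPM in CTRL. The males did not overlap between these diets and the females did. The log2 fold change over both sexes was 0.98 ± 0.46 (edgeR adjusted p = 0.46), and it was -0.05 ± 0.44 in females and 2.09 ± 0.46 in males. The difference between the sexes, female minus male, was -2.15 ± 0.64 (edgeR adjusted p = 0.9999, with 0.00631 before adjustment). The CTRL female N979 stood at 134 CPM. Over the 12 fits with a liver left out the log2 fold change over both sexes ran from 0.70 to 1.66, and 11 of them did not pass. The exception, at 1.66, was the fit without N979, which leaves N980 as the only CTRL female. In VLC5 livers G0s2 stood at 57.5 and 57.7 CPM in females and 44.0 and 41.1 CPM in males, a log2 fold change of -0.05 ± 0.44 against CTRL that did not pass.

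Hilpda (ENSMUSG00000043421), the hypoxia-inducible inhibitor of ATGL, was read at low level throughout, from 1.74 to 3.46 CPM in VLC5 livers and from 2.46 to 5.38 CPM in VLC1 livers, against 2.72 to 4.9 CPM in CTRL livers. All 3 diets overlapped, and its log2 fold changes were -0.47 ± 0.32 with 5% oil and -0.14 ± 0.32 with 1% oil, neither of which passed. It had 447 reads over all livers, and the 95% interval with 5% oil was -1.15 to 0.22.

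Among the perilipins, Plin5 (ENSMUSG00000011305), the coat protein of oxidative tissues that tethers droplets to mitochondria, was the 1 member of 10 to pass between the oil diets, where 1.33% of all genes tested passed. It had 44.9 and 40.7 CPM in the VLC5 females and 37.7 and 33.9 CPM in the VLC5 males, against 102 and 157 CPM in the VLC1 females and 48.7 and 49.9 CPM in the VLC1 males. The groups did not overlap, with means of 39.3 ± 4.63 CPM in VLC5 and 89.3 ± 51.3 CPM in VLC1 livers, and Plin5 fell by 1.02 ± 0.23 on the log2 scale with 5% against 1% oil (edgeR adjusted p = 0.0468). CTRL females had 86.8 and 60.0 CPM and CTRL males 34.6 and 36.3 CPM, so that VLC1 against CTRL gave 0.66 ± 0.23 (edgeR adjusted p = 0.278) and VLC5 against CTRL -0.35 ± 0.23 (edgeR adjusted p = 0.538). The high Plin5 livers N984, N983 and N979 were also those with the highest noncoding shares. With that share as a term, 5% against 1% oil gave -0.78 and lost the call (edgeR adjusted p = 0.114), and leaving out 9 of the 12 livers, 1 at a time, also lost it (all but N979, N980 and N975), with values from -1.15 to -0.81 over the 12 fits.

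Plin2 (ENSMUSG00000028494) had 437 and 425 CPM in the VLC5 females and 642 and 508 CPM in the VLC5 males, against 301 and 598 CPM in the CTRL females and 787 and 533 CPM in the CTRL males. VLC1 livers had 449 and 402 CPM in females and 736 and 889 CPM in males. All diets overlapped, with log2 fold changes of -0.13 ± 0.22 (95% interval -0.59 to 0.34) for 5% oil and 0.12 ± 0.22 (-0.35 to 0.58) for 1% oil. Plin2 was the most abundant member per length on every diet by its median, and no diet comparison of it passed the test.

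Plin4 (ENSMUSG00000002831), a long perilipin of adipose tissue that binds nascent droplets and neighbours Plin5 in the genome, had the largest spread among the perilipins relative to its mean on each of the 3 diets. It had 13.75 and 21.3 CPM in VLC5 females and 50.2 and 12.7 CPM in VLC5 males, against 55.1 and 12.6 CPM in CTRL females and 47.8 and 33.2 CPM in CTRL males. VLC1 livers ran from 33.1 to 206 CPM, the highest in female N984. No diet comparison passed: the log2 fold change was -0.61 ± 0.70 for 5% oil, 1.27 ± 0.72 for 1% oil and -1.88 ± 0.73 for 5% against 1% (edgeR adjusted p = 0.789, 0.541 and 0.226).

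**Figure D3:**
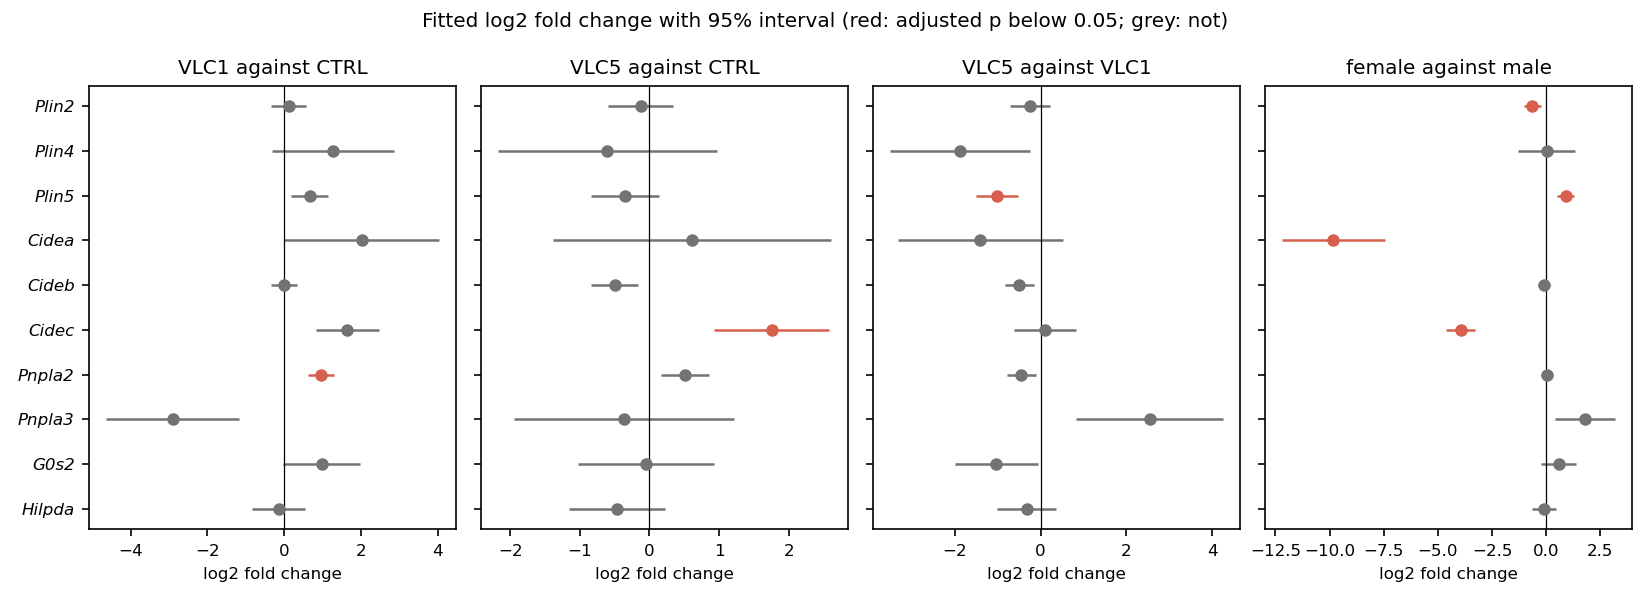
Fitted log2 fold changes (points) with 95% intervals (lines) of the 10 genes in the 3 diet comparisons and between the sexes; red marks an edgeR adjusted p below 0.05, and each panel has its own axis. Among diets the red genes are Pnpla2 (0.96), Cidec (1.75) and Plin5 (-1.02), and between the sexes Cidea (-9.83), Cidec (-3.95), Plin2 (-0.63) and Plin5 (0.90). Cidea was tested only through the males in which it is high, so its call between the sexes carries no weight.

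Females and males were compared over all diets. Of the members 4 of 10 passed between females and males, where 8.94% of all genes tested passed. Cidea (ENSMUSG00000024526), the CIDE protein of brown fat, was read in males on every diet and hardly in females. Females were at 0 in both livers with 5% oil and had 0 and 0.156 CPM with 1% oil and 0 and 0.1 CPM in CTRL. Males had 45.6 and 11.8 CPM with 5% oil, 11.6 and 138 CPM with 1% oil and 20.2 and 15.5 CPM in CTRL. Over the 6 livers of each sex this came to 2 reads in females and 2394 in males, a ratio of male over female of 1236 (95% interval 342 to 10210, for counting error only). The fitted log2 fold change, female against male, was -9.83 ± 1.07 (edgeR adjusted p = 0.000427), a size that rests on the prior count since most females were at 0, and limma voom put it at adjusted p = 0.0578. On the female livers alone Cidea would not have passed the filter on low counts, which the other 9 members passed in either sex. It was thus tested only through the males in which it is high. The count of 4 includes Cidea, and its call there carries no weight. Among the other 9 members the called ones were Cidec, Plin2 and Plin5.

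No diet difference of Cidea among the males passed the test. The log2 fold change was 0.68 ± 1.04 with 5% oil and 2.07 ± 1.06 with 1% oil (edgeR adjusted p = 0.999 and 0.853), and male N972 alone stood at 138 CPM.

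Cidec also differed by sex. It had 0.6 to 3.83 CPM in the 6 females (median 1.96 CPM), against 9.24 to 59.4 CPM in the 6 males (median 36.4 CPM). No female reached the lowest male, and the log2 fold change was -3.95 ± 0.32 (edgeR adjusted p = 7.32e-06). This call held in all 9 other settings and in all 12 fits with a liver left out, from -4.15 to -3.52. With 1% oil against CTRL Cidec had 1.15 and 2.655 CPM in females, against 1.27 and 0.6 CPM, and 43.8 and 59.4 CPM in males, against 18.3 and 9.24 CPM. The males did not overlap between the diets, and the log2 fold change of 1.65 ± 0.38 did not pass (edgeR adjusted p = 0.0966). DESeq2 (adjusted p = 0.00469) and limma voom (0.0436) put it past the threshold, while 8 of the 11 other settings did not pass.

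The adipocyte marker Cfd, or adipsin, was likewise read mainly in males. It had 3.07 to 21.5 CPM in oil-fed males, against 2.04 and 3.65 CPM in CTRL males, and at most 0.312 CPM in any female. Of the other adipocyte markers, Adipoq, Lep, Retn, Plin1 and Ucp1 were each at most 0.43 CPM in any liver, and Fabp4, which endothelial cells and macrophages also express, spanned 8.16 to 16.9 CPM in females, against 8.78 to 48.8 CPM in males. Adrb3 spanned 2.44 to 14.2 CPM in females, against 2.14 to 12.7 CPM in males. Of the 8 markers 6 had a read in females and 7 in males, and their sum stood at 16.8 to 25.1 CPM in females, against 13.1 to 82.2 CPM in males. The part of these values in the results for Cidea and Cidec was not tested.

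Plin5 and Plin2 went in opposite directions between the sexes. Plin5 had 40.7 to 157 CPM in females (median 73.4 CPM), against 33.9 to 49.9 CPM in males (median 37.0 CPM), a difference of 0.90 ± 0.19 on the log2 scale (edgeR adjusted p = 0.0111). Plin2 had 301 to 598 CPM in females (median 431 CPM), against 508 to 889 CPM in males (median 689 CPM), a difference of -0.63 ± 0.18 (edgeR adjusted p = 0.0419). The ranges of the sexes overlapped for both genes. With the noncoding share as a term both calls were lost, at 0.62 (edgeR adjusted p = 0.0914) for Plin5 and -0.36 (0.327) for Plin2, and the Plin2 call was also lost under upper quartile scaling and in 9 of the 12 fits with a liver left out (all but those without N980, N968 or N987).

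Pnpla3 had a log2 fold change of 1.81 ± 0.62 between females and males that did not pass (edgeR adjusted p = 0.0941; DESeq2 put it at 1.77 with adjusted p = 0.0362), with 1.9 to 86.5 CPM in females, against 1.97 to 20.2 CPM in males. For Cideb, Pnpla2, Hilpda and Plin4 the sex difference was at most 0.10 on the log2 scale in either direction, with 95% intervals of -0.37 to 0.18, -0.23 to 0.33, -0.67 to 0.46 and -1.31 to 1.34.

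Whether females and males answered the oil differently was tested with interaction terms. No member passed for either dose, nor did any gene, 0% of those tested for 5% oil and 0% for 1% oil; at an unadjusted p under 0.05 there were 645 genes (4.67%) and 1 member, Plin5, for 5% oil, and 517 genes (3.74%) and 1 member, G0s2, for 1% oil, and DESeq2 called 0 members for 5% oil. With 5% oil Plin5 had a log2 fold change of -0.78 ± 0.25 in females and 0.01 ± 0.26 in males, a difference of -0.79 ± 0.36 (edgeR unadjusted p = 0.049, adjusted p = 1). The VLC5 females, at 44.9 and 40.7 CPM, stood below the CTRL females, at 86.8 and 60.0 CPM, while the males of these diets overlapped.

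Transcript estimates showed which forms of the called genes were read. The submitters' table splits reads among annotated transcripts, and names and lengths here come from GENCODE M21, an older annotation than the GRCm39 build the submitters name. Cidec has 4 listed transcripts, and RefSeq gives 2 starts for it. Which transcript begins at which start was not tested. Cidec-201 took 58.5%, Cidec-202 32.2% and Cidec-203 9.31% of the Cidec reads over all livers. In the VLC5 males Cidec-203 had 22.7 and 81.3 estimated reads, against 27.4 and 0 in the CTRL males, and in the VLC1 males 48.8 and 33.6. Females had at most 3.27 reads of it. Reads given to Cidec-203 stood mainly in males on all 3 diets, as did those of the gene, though CTRL male N968 had 0. Cidec-201 and Cidec-202 are 1703 and 1720 bases long. The split between them jumped between livers, from none to all of the gene's reads, so it was not compared between diets.

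Plin5 has 2 listed transcripts, Plin5-201 and Plin5-202. Plin5-202 took 36.7 and 29.2% of the Plin5 reads in the VLC5 females, against 12.7 and 12.5% in the VLC1 females and 8 and 35.1% in the CTRL females. In males it took 20 and 34.5% with 5% oil, against 27.3 and 30.8% with 1% oil and 42.9 and 40.9% in CTRL. The smallest shares stood in N979, N984 and N983, the livers with the highest Plin5 and noncoding shares. By these estimates Plin5-201 carried most of the extra reads there, with 878 and 1157 reads in N984 and N983, where Plin5-202 had 125 and 168. Both forms are 1986 bases long, and how many reads tell them apart is not given. The precision of this split is therefore not known.

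Most Pnpla2 reads, 82.1% over all livers, were given to Pnpla2-201, a transcript of 2048 bases that GENCODE M21 annotates as a target of nonsense-mediated decay. Pnpla2-204, annotated likewise, took 8.24%. Of the transcripts annotated as coding, Pnpla2-202 took 4.43%, Pnpla2-203 1.88%, Pnpla2-206 1.52% and Pnpla2-205 0.46%. These shares rest on the estimated split and on that annotation. Pnpla2-201 took 69.1 to 92.4% in the VLC5 livers and 71.4 to 87.0% in the VLC1 livers, against 71.5 to 92.2% in the CTRL livers, so its share overlapped between all diets. Plin2-201 held 96.6% of Plin2 reads, Cideb-201 98.9% of Cideb reads, and G0s2 and Cidea had a single transcript each. The short noncoding Pnpla3-202 of 303 bases took 22.7% of the Pnpla3 reads, the coding Pnpla3-201 the rest.

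**Figure D4:**
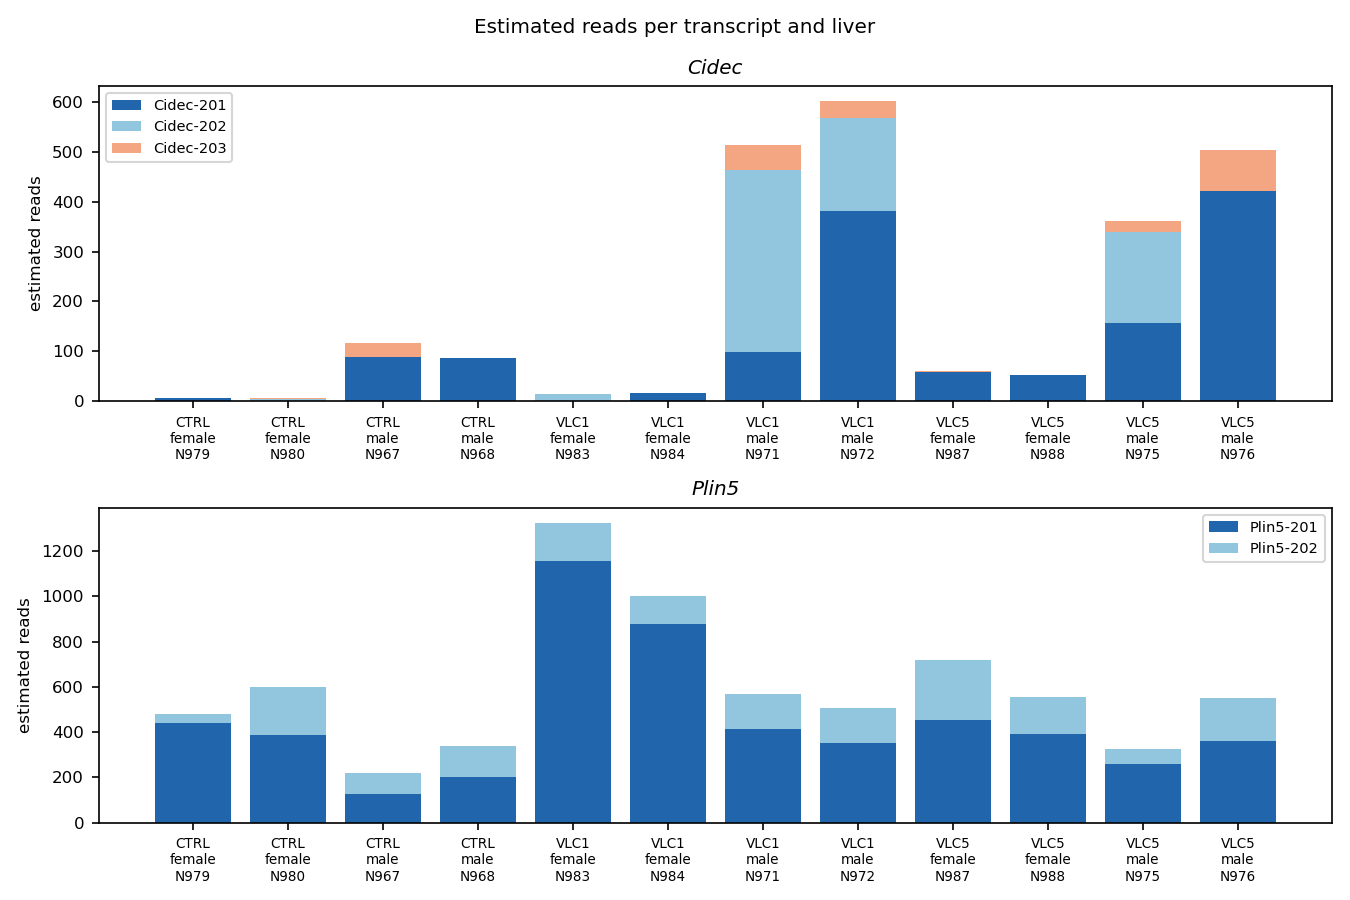
Estimated reads per transcript (bars stacked from 0) of Cidec and Plin5 in each of the 12 livers, not scaled for depth. Cidec reads stand mainly in males, with 513 and 602 in the VLC1 males and 362 and 503 in the VLC5 males, and Plin5-201 is tallest in the VLC1 females N983 and N984.

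The sequences before the starts of the 3 genes that passed a diet comparison are shown because Cidec and Plin5 were read from more than 1 start. They are the 250 bases before each RefSeq start on the GRCm38.p6 build, 5′ to 3′ on the strand of the gene, and capitals mark AGGTCA, the core motif of many nuclear receptors, and GGGCGG, the GC box, on either strand.
Cidec upstream start, chr6:113435761-113436010, minus strand: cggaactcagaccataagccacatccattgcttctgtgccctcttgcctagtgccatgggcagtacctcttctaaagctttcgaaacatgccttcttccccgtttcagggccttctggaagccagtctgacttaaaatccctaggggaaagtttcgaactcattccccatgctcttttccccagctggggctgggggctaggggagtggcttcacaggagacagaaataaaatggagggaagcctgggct
Cidec downstream start, chr6:113434765-113435014, minus strand: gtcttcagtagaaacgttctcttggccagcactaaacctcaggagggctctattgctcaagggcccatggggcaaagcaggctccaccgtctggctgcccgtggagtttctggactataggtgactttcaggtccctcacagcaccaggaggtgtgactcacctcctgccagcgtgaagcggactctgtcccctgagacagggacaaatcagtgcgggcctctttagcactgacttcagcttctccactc
Pnpla2, chr7:141454938-141455187, plus strand: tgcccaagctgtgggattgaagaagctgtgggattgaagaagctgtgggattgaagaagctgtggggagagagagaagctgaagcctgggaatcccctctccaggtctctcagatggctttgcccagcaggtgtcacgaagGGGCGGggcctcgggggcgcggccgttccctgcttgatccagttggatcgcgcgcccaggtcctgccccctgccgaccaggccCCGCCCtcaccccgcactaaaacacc
Plin5 upstream start, chr17:56117549-56117798, minus strand: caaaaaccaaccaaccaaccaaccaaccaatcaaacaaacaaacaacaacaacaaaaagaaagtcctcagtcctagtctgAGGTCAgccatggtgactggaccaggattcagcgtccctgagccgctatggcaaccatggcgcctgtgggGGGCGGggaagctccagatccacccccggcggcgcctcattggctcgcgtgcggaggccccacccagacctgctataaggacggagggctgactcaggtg
Plin5 downstream start, chr17:56117299-56117548, minus strand: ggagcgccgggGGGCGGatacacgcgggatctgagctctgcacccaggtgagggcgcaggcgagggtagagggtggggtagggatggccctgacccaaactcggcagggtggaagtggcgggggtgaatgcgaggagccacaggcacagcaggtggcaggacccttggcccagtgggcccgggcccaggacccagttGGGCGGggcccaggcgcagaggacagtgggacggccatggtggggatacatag
Neither Cidec window holds AGGTCA or GGGCGG. The Pnpla2 window holds GGGCGG at 2 places and is 63.2% G and C. The upstream Plin5 window holds AGGTCA beginning 170 bases and GGGCGG beginning 100 bases before the start, and the downstream one, which adjoins it, holds GGGCGG at 2 places and no AGGTCA. Windows were given for 9 of the 10 genes, 12 windows in all, of which 2 hold AGGTCA, those of Plin2 and Plin5, and 7 hold GGGCGG. Of 32851 windows of this length over the mouse genes, 14.0% hold AGGTCA and 32.7% hold GGGCGG. No window of the 9 genes holds the direct repeat of AGGTCA with a spacer of 1 base, which 11 of the 32851 windows hold, or the E-box CACGTG, which 6.02% hold. These are matches of letters in this window only.

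Other genes of droplet biogenesis and lipolysis were read from a list of 16 coat and biogenesis genes and a list of 11 lipolysis genes. Of the 16, 15 were tested, Plin1 having too few reads. With 5% oil against CTRL 2 rose, Hsd17b11 and Fitm2, and 0 fell, where 2.46% of all genes tested passed. The median log2 fold change of the 15 was -0.03 against 0.01 over all genes. An unadjusted p under 0.05 was found for 3 of the 15, where 14.6% of all genes were under it. With 1% oil against CTRL and 5% against 1% none of the 15 passed the edgeR test, and 4 and 1 had an unadjusted p under 0.05, where 11.1% and 17.8% of all genes did. Of the 11 lipolysis genes 1 rose with 5% oil, Ddhd2, and 0 fell, with a median of 0.03 (5 of 11 at an unadjusted p under 0.05). With 1% oil 0 passed (2 of 11 at an unadjusted p under 0.05). Ddhd2 rose again with 5% against 1% oil, where 1.33% of all genes tested passed (4 of 11 at an unadjusted p under 0.05). Female against male, Fitm1, Fitm2 and Rab18 of the first list and Lipa and Pnpla7 of the second were lower in females, and 0 were higher, 3 of 15 and 2 of 11 where 8.94% of all genes tested passed. The Fitm2 call between the sexes was lost in 6 of 9 other settings and in 9 of the 12 fits with a liver left out.

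Ddhd2, a phospholipase and triglyceride hydrolase known from the brain, had 72.7 and 65.1 CPM in VLC5 females and 34.6 and 52.3 CPM in VLC5 males, against 9.25 and 16.4 CPM in CTRL females and 25.1 and 16.4 CPM in CTRL males. VLC1 livers had 16.9 to 22.4 CPM. Every VLC5 liver was above every liver of the other diets, and the log2 fold change was 1.73 ± 0.28 against CTRL (edgeR adjusted p = 0.00706) and 1.51 ± 0.28 against VLC1 (edgeR adjusted p = 0.0287). The call against CTRL held in all 11 other settings and in all 12 fits with a liver left out, from 1.49 to 1.99, while the call against VLC1 was lost in 7 of those 12 fits (without N984, N983, N972, N971, N988, N987 or N976), without the sex term (edgeR adjusted p = 0.0746) and with the noncoding share as a term (1.198, edgeR adjusted p = 0.0636).

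Hsd17b11, a short-chain dehydrogenase on the droplet surface, had 207 to 297 CPM in VLC5 livers, against 96.5 to 189 CPM in CTRL livers, without overlap, a difference of 0.83 ± 0.19 on the log2 scale (edgeR adjusted p = 0.0338). VLC1 livers had 179 to 367 CPM and 0.79 ± 0.19, which did not pass (edgeR adjusted p = 0.104). Fitm2, a protein of the endoplasmic reticulum needed for droplets to bud, had 36.7 to 62.95 CPM in VLC5 livers, against 17.2 to 43.4 CPM in CTRL livers, with 0.82 ± 0.20 (edgeR adjusted p = 0.0499). These ranges overlapped, and the Fitm2 call was lost in 11 of the 12 fits with a liver left out (all but that without N967). The Hsd17b11 call was lost in 8 of them (all but those without N983, N972, N971 or N975).

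The genes most like a member over the 12 livers were sought by the root mean square difference of their log2 CPM, each centred on its own mean, for the 4 members with the smallest p for 5% oil. For Pnpla2, whose own profile had a spread of 0.42, these were Bnip3, a mitophagy receptor (0.16), Crat, carnitine acetyltransferase (0.20), and Abhd6, a monoacylglycerol lipase (0.22). Bnip3 averaged 7.03, 7.96 and 7.77 on the log2 CPM scale in CTRL, VLC1 and VLC5 livers. For Cidec, with a spread of 2.11, they were Dpy19l3 (0.76), the male-biased P450 gene Cyp2d9 (0.80) and Clstn3 (0.91), for Cideb, with a spread of 0.28, Snapc5 (0.11), Azgp1 (0.12) and Pecr (0.13), and for Plin5, with a spread of 0.67, Mustn1 (0.25), P2rx7 (0.28) and Ifi207 (0.28). The measure uses the same 12 livers throughout.

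In the authors' deposited table of 261 genes, 2 members were listed, Pnpla2 with a log fold change of 0.85 (adjusted p = 0.0137) and Cidec with 1.80 (adjusted p = 0.0894). That table does not name its contrast or log base. Over its 261 genes the fold changes in the authors' deposited table lay closest to the mean of the VLC1 and VLC5 livers minus the CTRL livers in log2(deposited CPM + 0.5), with a median gap of 0.0255, against 0.206 for VLC5 minus CTRL and 0.273 for VLC1 minus CTRL. On that scale the mean of both oil diets minus CTRL was 0.84 for Pnpla2 and 1.52 for Cidec. For Cidec alone VLC5 minus CTRL, at 1.665, lay closer to the authors' 1.80.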

How the data were processed

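Liver messenger RNA was sequenced in 12 mice. The authors deposited estimated counts per gene and per transcript, which need not be whole, and CPM for 11339 genes; kallisto, edgeR and limma are named without roles per the submitters' processing notes, with the build GRCm39. The authors also deposited a table of fold changes with p-values for 261 genes; per the file headers neither its contrast nor its log base is named, and the fold changes were read as log2 because they lay close to log2 differences of the deposited CPM. Its adjusted signal per liver, deposited without a stated step, was not used. The counting strand is not given in the sources used here.

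Rounded counts entered edgeR 4.0.16 (R 4.3.3). The low-count filter filterByExpr, given each combination of diet and sex as a group, passed 13814 genes with all 10 members. Library sizes took TMM factors, and diet and sex were terms of the robust quasi-likelihood fit over all 12 livers. A fit with 6 groups gave within-sex values and interactions. The p, 2-sided, were adjusted by Benjamini-Hochberg over 13814 genes, with a threshold of 0.05. Replicates are separate animals that no group shares, so none were paired. TPM used transcript lengths of GENCODE M21. Promoter windows are RefSeq's on GRCm38.p6. The fit was tested on simulated data.

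The members, lists and tests were chosen with earlier results of these data known. All members are named; of the other lists, genes past the threshold in a diet comparison (at most 6). Alternatives were RLE and upper quartile scaling, no filter, at least 50 reads in 4 livers, DESeq2 1.42.0, limma 3.58.1 (voom, and trend on the deposited CPM + 0.5), sums of transcript counts, no sex term, only the 8 livers compared, the noncoding share as a term, and each liver left out.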

Additional observations from a re-analysis of the deposited data

Results flagged for a closer look

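In groups of 4 livers, a liver was picked out where its distance from the nearest other liver, over the range of the group, passed Dixon's 95% critical value. Of the 30 groups (10 genes on 3 diets) 5 held such a liver. The nominal rate of 1 in 20 holds for values of 1 normal population. Each group here mixes 2 females and 2 males, and these genes share livers, so 5 of 30 cannot be read as an excess. In the VLC1 diet the male N972 stood high for Cidea, at 138.0 CPM (ratio 0.916), and for Cideb, at 404 CPM (0.955). The VLC1 female N983 stood high for Pnpla3, at 9.99 CPM (0.960), where the other VLC1 livers had at most 2.22 CPM, and low for G0s2, at 61.7 CPM (0.865), where they had at least 104.5 CPM. The CTRL female N979 stood high for G0s2, at 134 CPM (0.850). N983 and N979 are among the livers with the highest noncoding shares (1.55 and 1.63%) and N972 is not (0.685%). What sets these livers apart was not tested.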

How the results depend on the processing

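Of 1451 recomputed log2 fold changes of members and named genes, 1335 kept their direction where called and their side of the threshold, 87 lost a call, 29 gained one and none that was called changed sign. Members that passed were 1 for VLC5 against CTRL, 1 for VLC1 against CTRL, 1 for VLC5 against VLC1, 4 (Cidea included) for female against male and 0 for the sex difference in the VLC5 response. Without a filter they were 6 for VLC1 against CTRL, 5 for VLC5 against VLC1 and 1, Pnpla3, for the sex difference. With DESeq2 they were 2, 3 and 3 in the diet comparisons VLC5 against CTRL, VLC1 against CTRL and VLC5 against VLC1. With limma voom there were 2 for VLC1 against CTRL, and with limma trend 2 for VLC5 against CTRL and 0 for VLC5 against VLC1. Without the sex term there were 0 in each diet comparison, and with only the 8 livers compared 0 for VLC5 against VLC1. With the noncoding share as a term there were 0 for VLC5 against VLC1 and 2 for female against male. Other settings gave 3 (upper quartile scaling, limma voom), 4, 5 (DESeq2) or 6 (no filter) for female against male. With each liver left out in turn the counts ran from 0 to 1 (VLC5 against CTRL), 0 to 2 (VLC1 against CTRL), 0 to 2 (VLC5 against VLC1), 3 to 4 (female against male) and 0 to 0 (sex difference). The causes of these changes were not tested. No paired analysis was possible because the replicate names are animal numbers that no diet shares. With 4 livers per diet and 2 per sex within it, folds of genes with few reads, such as Cidea and Cidec in females and Hilpda, are imprecise.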
